A study of Mus musculus with 12 samples.

Results

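Macrophages labelled CKO were given interferon-γ (IFN-γ), and their RNA was sequenced and compared with that of untreated cells of the same label. The 4 libraries of this comparison, of 12 in the series, were chosen by their labelled genotype and treatment: 2 of CKO cells given IFN-γ at 100 U/mL for 24 h and 2 of untreated CKO cells. All cells were mouse bone marrow-derived macrophages, which are grown in culture from marrow precursors. Libraries of WT cells with the same treatments (2 with IFN-γ, 2 untreated) were used to test where the CKO response differed, and the 4 libraries of cells given IL-4 (20 ng/mL, 24 h) entered the shared scaling, filter and estimate of spread and the checks of the libraries, but no contrast. What CKO stands for, by gene, allele, promoter or strain, is not in the labels. The transcription factor IRF8 is in the title of the series. No label tells whether the 2 libraries of 1 group are from different animals or cultures, so every p-value measures only the spread between these libraries, which may be technical.

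IFN-γ is a cytokine of T cells and natural killer cells that activates macrophages against intracellular microbes. It binds a receptor of IFNGR1 and IFNGR2 chains, whose kinases JAK1 and JAK2 start a cascade that acts on GAS elements in DNA. The cascade induces further factors, among them IRF1 and IRF8, which act on interferon-stimulated response elements (ISRE), and IRF8 also binds composite elements (EICE) together with PU.1. In macrophages this cascade is known for antigen presentation, cell-autonomous defence by GTPases, nitric oxide and itaconate production, and recruitment of T cells.

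The IFN-γ CKO libraries held 28466599 and 28517254 counts, and the untreated CKO libraries held 25285638 and 32717379. Of 48440 genes in the table, 16292 had enough counts to be tested. Levels are CPM, counts scaled to library size, after TMM scaling. Differences are log2 fold changes of IFN-γ over untreated, with an approximate SE, and n = 2 libraries a group throughout. A gene is said to rise or fall where edgeR's quasi-likelihood test gave an adjusted p under 0.05 over all genes tested. Untreated CKO library 1 stood apart before any comparison. Its share of mitochondrial counts was 1.52%, with a Wilson interval (95%) of 1.512 to 1.522, while the remaining 11 libraries ranged over 2.12% to 3.25%, and its Gapdh and Actb levels were the lowest of the 12. The SD of log2 differences between replicates was 0.127 for the IFN-γ CKO pair and 0.366 for the untreated CKO pair.

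Irf8 (gene ID ENSMUSG00000041515.9), the gene of the factor in the title, lies on GRCm38 at chromosome 8, 120736358 to 120756694, plus strand, and was read first as a check. It had 1204 and 1173 CPM in the IFN-γ CKO libraries, against 293 and 248 CPM in the untreated CKO libraries. WT cells had 513 and 502 CPM with IFN-γ and 90.9 and 91.2 CPM untreated. Before TMM scaling the IL-4 libraries held 174 and 146 CPM in CKO and 69 and 65.1 CPM in WT. Irf8 was thus present in all libraries labelled CKO, and above the WT libraries of the same treatment in each case. This goes against a label that would mean loss of the whole Irf8 transcript, and every direction below is one between libraries labelled CKO. A missing exon would not show in counts summed over the gene. Lyz2, the macrophage lysozyme gene, was near absent in the same cells: it had 12.6 and 15.7 CPM in the IFN-γ CKO libraries, against 25.6 and 28 CPM in the untreated CKO libraries, and 6039 and 5845 CPM with IFN-γ and 11858 and 10956 CPM untreated in WT.

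The macrophage label fitted the levels of Csf1r, the receptor for the growth factor M-CSF, and Adgre1, which encodes F4/80, both chosen after their values were seen. Of the 26 macrophage identity genes to which they belong, 10 rose and 6 fell. Lyz2, near absent in CKO as given above, is also 1 of the 26. Csf1r had 1689 and 1607 CPM in the IFN-γ CKO libraries, against 1812 and 1471 CPM in the untreated CKO libraries. Adgre1 had 1185 and 1134 CPM in the IFN-γ CKO libraries, against 1329 and 946 CPM in the untreated CKO libraries. Neither differed past the test (edgeR adjusted p = 0.984 for Csf1r and 0.911 for Adgre1). Of 12 markers of T and NK cells, 7 had no count in any of the 4 libraries, and the summed level of the 12 was 2.18 and 2.07 CPM with IFN-γ, against 19.9 and 15.5 CPM untreated, nearly all of it Cd4. Fibroblast markers summed to 0.281 and 0.351 CPM with IFN-γ, against 0.396 and 0.520 CPM untreated. Fewer cells of a type and less RNA per cell cannot be told apart in such bulk samples.

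Promoters show the sites through which this response is known to run. The sequences below are RefSeq promoters on GRCm38.p6, from 250 bases before to 50 bases after the annotated start, written 5′ to 3′ along the gene. Capitals mark matches, on either strand, to GAS (TTC, any 3 bases, GAA), ISRE (GAAA, any 2 bases, GAAA) or EICE (GGAA, any 2 bases, GAAA), and positions are those of the first base of a match counted from the start. Irf1 and Irf8 are shown because their promoters hold GAS matches, at −90 in Irf1 and at −171 and −153 in Irf8. Gbp2, Irgm1, Socs1 and Cxcl10 are shown for ISRE matches, at −59 in Gbp2, at −30 and −24 in Irgm1, at −83 and −77 in Socs1 and at −213 in Cxcl10, where the paired matches overlap by 4 bases. Mrc1, a gene that fell, is shown with none of these letters in its window. The table holds a later start of Irf1 (window chr11:53770223-53770522) and of Irf8 (chr8:120738389-120738688), and neither window holds a match. The windows of Acod1, H2-Aa, H2-K1, Cd274 and C3, which rose, hold none either. A match is a description of the letters and not evidence of binding, and a window without one says nothing about the factor. The windows are chr11:53769764-53770063 (plus strand) for Irf1, chr8:120736108-120736407 (plus strand) for Irf8, chr3:142620413-142620712 (plus strand) for Gbp2, chr11:48871371-48871670 (minus strand) for Irgm1, chr16:10785487-10785786 (minus strand) for Socs1, chr5:92348840-92349139 (minus strand) for Cxcl10 and chr2:14229164-14229463 (plus strand) for Mrc1.
Irf1: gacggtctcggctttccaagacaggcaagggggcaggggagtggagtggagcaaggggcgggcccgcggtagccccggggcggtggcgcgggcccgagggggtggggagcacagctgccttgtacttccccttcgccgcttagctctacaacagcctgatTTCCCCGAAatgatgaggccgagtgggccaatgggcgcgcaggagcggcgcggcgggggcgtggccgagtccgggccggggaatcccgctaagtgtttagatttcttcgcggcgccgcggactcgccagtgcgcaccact
Irf8: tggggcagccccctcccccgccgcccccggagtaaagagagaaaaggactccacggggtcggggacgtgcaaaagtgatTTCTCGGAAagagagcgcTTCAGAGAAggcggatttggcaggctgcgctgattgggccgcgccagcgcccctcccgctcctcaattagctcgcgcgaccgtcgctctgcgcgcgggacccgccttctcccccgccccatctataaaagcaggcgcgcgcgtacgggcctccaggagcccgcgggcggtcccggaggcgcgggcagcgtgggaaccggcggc
Gbp2: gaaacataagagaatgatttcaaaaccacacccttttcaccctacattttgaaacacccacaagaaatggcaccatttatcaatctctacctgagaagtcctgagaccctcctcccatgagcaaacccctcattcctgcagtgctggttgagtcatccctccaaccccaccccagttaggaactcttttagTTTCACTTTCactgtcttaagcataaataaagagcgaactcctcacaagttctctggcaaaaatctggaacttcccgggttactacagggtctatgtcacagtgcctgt
Irgm1: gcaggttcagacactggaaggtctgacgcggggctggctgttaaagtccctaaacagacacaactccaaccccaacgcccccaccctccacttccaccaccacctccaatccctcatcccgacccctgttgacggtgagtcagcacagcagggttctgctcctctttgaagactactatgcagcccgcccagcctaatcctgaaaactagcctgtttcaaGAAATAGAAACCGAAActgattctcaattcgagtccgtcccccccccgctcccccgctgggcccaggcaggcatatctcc
Socs1: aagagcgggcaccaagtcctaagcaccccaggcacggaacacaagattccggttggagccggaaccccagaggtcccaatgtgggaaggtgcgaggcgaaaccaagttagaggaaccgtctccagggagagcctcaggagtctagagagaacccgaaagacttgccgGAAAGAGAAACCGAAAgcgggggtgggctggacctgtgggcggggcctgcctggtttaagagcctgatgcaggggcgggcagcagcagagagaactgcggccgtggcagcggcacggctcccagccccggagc
Cxcl10: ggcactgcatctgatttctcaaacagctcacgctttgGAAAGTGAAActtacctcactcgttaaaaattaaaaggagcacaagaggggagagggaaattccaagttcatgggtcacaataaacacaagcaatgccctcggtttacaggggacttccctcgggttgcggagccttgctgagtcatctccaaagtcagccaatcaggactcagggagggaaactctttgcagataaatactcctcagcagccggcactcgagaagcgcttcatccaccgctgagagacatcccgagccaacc
Mrc1: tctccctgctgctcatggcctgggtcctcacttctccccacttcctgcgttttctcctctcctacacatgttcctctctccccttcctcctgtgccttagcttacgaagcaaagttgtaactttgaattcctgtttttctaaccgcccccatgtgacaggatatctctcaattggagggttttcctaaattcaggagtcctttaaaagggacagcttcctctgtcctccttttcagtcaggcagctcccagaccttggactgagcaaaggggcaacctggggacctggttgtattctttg

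IFN-γ changed many transcripts of CKO macrophages, and most of the large changes were increases. In all, 2396 genes rose (14.7% of those tested) and 1937 fell (11.9%), together 26.6%. Of the genes that rose, 533 did so by at least 4-fold and 206 by at least 16-fold, while 171 fell by at least 4-fold and 21 by at least 16-fold. The 206 genes took 4.71% and 4.62% of all counts in the IFN-γ CKO libraries, against 0.0813% and 0.0631% in the untreated ones. The 171 genes took 0.118% and 0.121% of counts with IFN-γ, against 0.742% and 0.693% untreated. From under 1 CPM in untreated cells to at least 10 CPM with IFN-γ passed 63 genes, and 2 genes passed the opposite way. Each of the 4333 genes called had no overlap between the 2 and 2 libraries, as did 61.8% of all genes tested.

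Leaving out untreated CKO library 1 left 1916 genes higher (11.5% of 16693 tested) and 1584 lower (9.49%). The 2396 higher genes became 1573 without IFN-γ CKO library 1, and the 1937 lower genes became 1149 without IFN-γ CKO library 1 and 976 without IFN-γ CKO library 2. None of the 4333 calls changed its direction in any of these fits. That was nearly fixed beforehand, as no called gene had overlapping libraries. The median log2 fold change over all tested genes was 0.0019, and −0.024 without untreated CKO library 1.

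**Figure D1:**
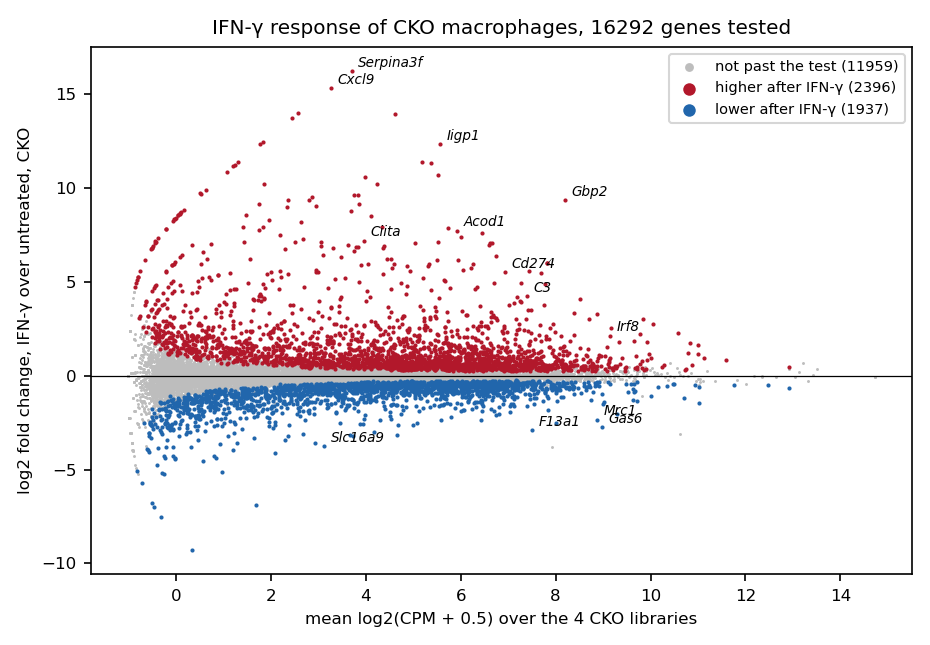
Log2 fold change of IFN-γ over untreated CKO macrophages (vertical axis) against mean log2(CPM + 0.5) over the 4 CKO libraries (horizontal axis), 1 point a gene. Red points are the 2396 genes that rose, blue points the 1937 that fell and grey points the rest, and the red points reach further from 0 than the blue ones, with 206 genes higher and 21 lower by at least 16-fold.

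The receptor of IFN-γ was already expressed, and the factors downstream of it rose. Ifngr1 had 125 and 119 CPM in the IFN-γ CKO libraries, against 182 and 134 CPM in the untreated CKO libraries (log2 fold change −0.37 ± 0.14, edgeR adjusted p = 0.0617), and Ifngr2 and the kinase gene Jak1 had log2 fold changes of −0.07 ± 0.09 and −0.01 ± 0.11. Those 3 genes did not pass the test. Without untreated CKO library 2, Ifngr1 did (log2 fold change −0.59, edgeR adjusted p = 0.0027). The second kinase gene, Jak2, rose by 0.84 ± 0.11 (edgeR adjusted p = 1.28e-04).

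Of the 26 signalling genes tested, 21 rose, none fell and 5 did not pass, with a median of 1.95, against 14.7% of all tested genes higher. Irf1, an early target of the pathway, had 1196 and 1174 CPM in the IFN-γ CKO libraries, against 47.4 and 33 CPM in the untreated CKO libraries (log2 fold change 4.88 ± 0.23, edgeR adjusted p = 2.55e-08). Irf8 itself rose by 2.14 ± 0.12 (edgeR adjusted p = 5.87e-08), and Irf7, which amplifies type I interferon, by 4.59 ± 0.13 (edgeR adjusted p = 2.95e-10). Brakes of interferon signalling rose as well. Socs1, an inhibitor of the JAK kinases whose promoter holds the overlapping ISRE matches above, had 57.8 and 42.5 CPM in the IFN-γ CKO libraries, against 0.38 and 0.26 CPM in the untreated CKO libraries (log2 fold change 7.31 ± 0.57, edgeR adjusted p = 5.32e-06). Usp18, which removes ISG15 from proteins and damps the type I interferon receptor, had 33.5 and 37.9 CPM with IFN-γ, against 2.88 and 2.6 CPM untreated (log2 fold change 3.71 ± 0.13, edgeR adjusted p = 1.68e-09). Without untreated CKO library 2, 1 signalling gene was called lower.

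**Figure D2:**
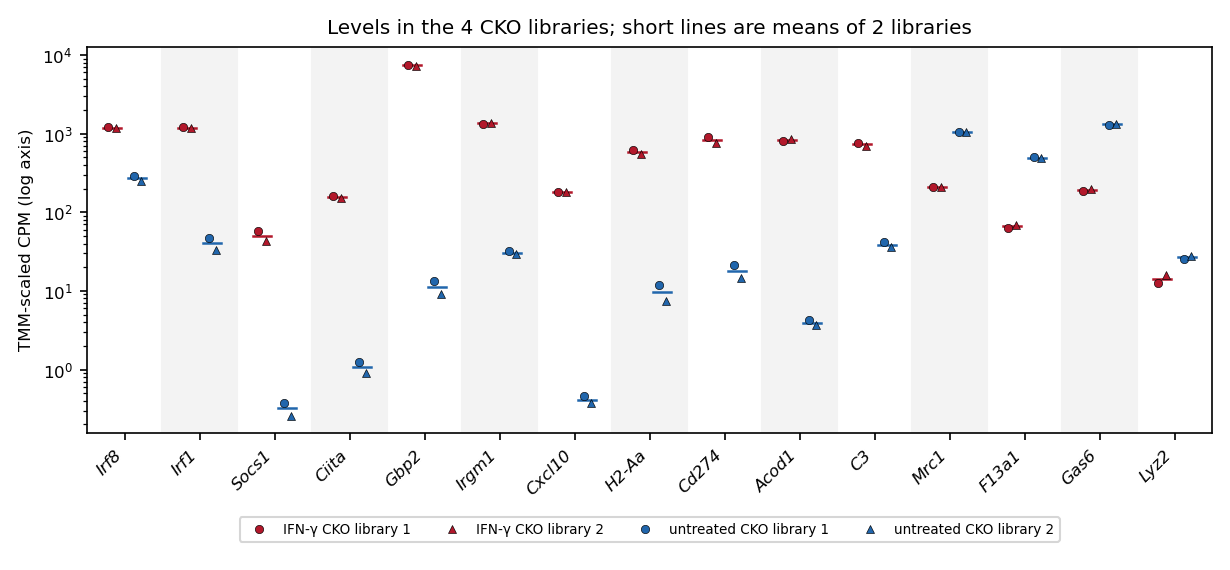
TMM-scaled CPM on a log axis for 15 genes in each of the 4 CKO libraries, IFN-γ in red on the left of each gene and untreated in blue on the right, with circles for library 1, triangles for library 2 and short lines for the mean. The 11 genes from Irf8 to C3 lie higher with IFN-γ and the 4 from Mrc1 to Lyz2 lie lower. No gene's groups overlap, as held for 61.8% of all genes tested.

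Interferon-induced GTPases, which attack the vacuoles of intracellular microbes, were the list with the largest median, 7.88 (8.58 without untreated CKO library 1), and all 19 tested members rose. Gbp2 (ENSMUSG00000028270.12; GRCm38 chromosome 3, 142620602 to 142638008, plus strand), a guanylate-binding protein gene, had 7549.7 and 7282 CPM in the IFN-γ CKO libraries, against 13.5 and 9.14 CPM in the untreated CKO libraries (log2 fold change 9.36 ± 0.37, edgeR adjusted p = 1.17e-08). Irgm1, a regulator of the immunity-related GTPases, had 1337 and 1370.5 CPM in the IFN-γ CKO libraries, against 32.1 and 29.2 CPM in the untreated CKO libraries (log2 fold change 5.47 ± 0.18, edgeR adjusted p = 9e-10). Among the 12 largest increases by rule, 8 belonged to these families: Iigp1 (12.36), Tgtp1 (11.38), Gbp4 (11.34), Tgtp2 (10.71), Gbp6 (10.22), Gbp11 (9.64), Gbp10 (9.61) and Gbp2, all as log2 fold changes. The rule, given below with the processing, left out genes of the Gbp clusters with larger values. These reached 13.7 on chromosome 3 and 14.0 on chromosome 5. Gbp11 was at 10.56 without untreated CKO library 1 and 8.94 without untreated CKO library 2. Iigp1, which loads onto the vacuole of Toxoplasma, had 2339 and 2388 CPM with IFN-γ, against 0.569 and 0.346 CPM untreated (edgeR adjusted p = 1.7e-11). Reads of near-identical members, such as Tgtp1 and Tgtp2 or the Gbp genes of chromosome 5, can be assigned to either copy, so single values in these families are uncertain.

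The other 4 of those 12 increases were Serpina3f and Serpina3g, 2 neighbouring protease inhibitor genes, Cxcl9 and Slamf8, which encodes a surface receptor of the SLAM family. Serpina3f had 342 and 343 CPM with IFN-γ, against 0 and 0 CPM untreated, which is at least 6973-fold higher against a floor of 3 counts over the untreated group (edgeR adjusted p = 1.17e-10). Serpina3g had 1166 and 1022 CPM with IFN-γ, against 0 and 0.115 CPM untreated (edgeR adjusted p = 2.27e-10), and as a near copy of other Serpina3 genes its value is uncertain. Slamf8 had 233 and 233 CPM with IFN-γ, against 0.38 and 0.433 CPM untreated (log2 fold change 9.14 ± 0.31, edgeR adjusted p = 1.68e-09). Floors and counting intervals cover counting error only.

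Antiviral interferon-stimulated genes rose in 36 of 37 tested cases and fell in 1, with a median of 3.15, against 14.7% of all tested genes higher. Ifit2, which binds foreign RNA, had 1074 and 1019 CPM in the IFN-γ CKO libraries, against 8.96 and 8.1 CPM in the untreated CKO libraries (log2 fold change 6.94 ± 0.18, edgeR adjusted p = 1.57e-10). Isg15, a ubiquitin-like modifier, rose by 5.89 ± 0.15, Oasl2, a member of the oligoadenylate synthetase family, by 5.82 ± 0.16, and Ifit1 by 5.96 ± 0.21 (edgeR adjusted p = 1.43e-10, 1.86e-10 and 1.69e-09).

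Antigen presentation on MHC class I rose nearly as a whole: 22 of 23 tested genes were higher and 1 did not pass, with a median of 2.63. H2-K1, a class I heavy chain gene, had 1950.3 and 1881 CPM in the IFN-γ CKO libraries, against 444 and 372 CPM in the untreated CKO libraries (log2 fold change 2.23 ± 0.14, edgeR adjusted p = 1.79e-07), and its reads may be shared with other H2 genes. B2m, the invariant light chain gene, rose by 2.28 ± 0.16 (edgeR adjusted p = 6.8e-07). The peptide transporter genes Tap1 and Tap2 rose by 3.89 ± 0.12 and 2.97 ± 0.11 (edgeR adjusted p = 4.48e-10 and 1.78e-09). Psmb8, an immunoproteasome subunit gene, had 576 and 582 CPM with IFN-γ, against 52.8 and 48.2 CPM untreated (log2 fold change 3.52 ± 0.09, edgeR adjusted p = 1.83e-10).

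The class II pathway rose in 12 of 15 tested genes, with none lower and a median of 3.13. Ciita, the master switch of class II transcription, had 159.5 and 153 CPM in the IFN-γ CKO libraries, against 1.25 and 0.894 CPM in the untreated CKO libraries (log2 fold change 7.20 ± 0.21, edgeR adjusted p = 3.21e-10). H2-Aa, a class II chain gene, had 621 and 553 CPM in the IFN-γ CKO libraries, against 12 and 7.44 CPM in the untreated CKO libraries (log2 fold change 5.93 ± 0.21, edgeR adjusted p = 2.18e-09). Cd74, the invariant chain gene, had 1269 and 1141 CPM with IFN-γ, against 27.8 and 22.3 CPM untreated (log2 fold change 5.59 ± 0.14, edgeR adjusted p = 1.21e-10). Ciita was close to 1 CPM in both untreated libraries, and its targets were low there too.

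Signals to T cells went both ways, with 7 of 16 costimulatory and checkpoint genes higher, 3 lower and a median of 0.70. Of all tested genes 14.7% were higher and 11.9% lower. Cd274, which encodes the checkpoint ligand PD-L1, had 901 and 755 CPM in the IFN-γ CKO libraries, against 21.4 and 14.4 CPM in the untreated CKO libraries (log2 fold change 5.53 ± 0.29, edgeR adjusted p = 1.15e-07). Cd40, a receptor for T cell help, rose by 3.98 ± 0.18, Cd86, a ligand of CD28, by 2.38 ± 0.20 and the adhesion molecule gene Icam1 by 2.64 ± 0.13 (edgeR adjusted p = 9.89e-09, 2.52e-06 and 2.93e-08). Cd80, the other CD28 ligand gene, had 4.29 and 4.42 CPM with IFN-γ, against 8.54 and 7.18 CPM untreated, and it fell (log2 fold change −0.85 ± 0.17, edgeR adjusted p = 0.00282). The pair of CD28 ligand genes thus moved in opposite directions. In each case the libraries did not overlap, as held for every gene called and for 61.8% of all genes tested.

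Chemokine genes for T cell recruitment switched on. Cxcl9 had 194 and 174 CPM in the IFN-γ CKO libraries, against 0 and 0 CPM in the untreated CKO libraries, at least 3746-fold higher (edgeR adjusted p = 1.3e-08). Cxcl10, like CXCL9 a ligand of CXCR3, had 183 and 180.5 CPM in the IFN-γ CKO libraries, against 0.455 and 0.375 CPM in the untreated CKO libraries (log2 fold change 8.77 ± 0.30, edgeR adjusted p = 1.69e-09), and Ccl5 had 24.7 and 18.8 CPM with IFN-γ, against 0.531 and 0.375 CPM untreated (log2 fold change 5.60 ± 0.32, edgeR adjusted p = 8.25e-08). Ccl9, which the untreated cells expressed, fell (log2 fold change −1.15 ± 0.12), as did the platelet factor gene Pf4 (log2 fold change −1.30 ± 0.13, edgeR adjusted p = 1.96e-05 and 1.06e-05). Of 19 chemokine ligand genes tested, 11 rose and 5 fell, and the 11 became 6 without untreated CKO library 1 and 6 without IFN-γ CKO library 2.

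Receptors followed a similar split, with 8 of 13 chemoattractant receptor genes higher and 3 lower. Ccr1, a receptor for inflammatory chemokines, rose by 1.91 ± 0.15 and Fpr2, a formyl peptide receptor gene, by 4.21 ± 0.27 (edgeR adjusted p = 1.54e-06 and 3.75e-07). Without untreated CKO library 1 the log2 fold change of Fpr2 was 4.85. Cxcr4, which holds cells in the marrow, had 6.06 and 6.36 CPM with IFN-γ, against 55.4 and 42.5 CPM untreated (log2 fold change −2.98 ± 0.40, edgeR adjusted p = 3.44e-04). Cx3cr1, the fractalkine receptor gene, had 7.64 and 8.85 CPM with IFN-γ, against 13.3 and 17.6 CPM untreated (log2 fold change −0.91 ± 0.19, edgeR adjusted p = 0.00355).

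Cytokine and cytokine receptor genes rose in 16 of 22 tested cases, with none lower and a median of 1.5. Il12rb1, a chain of the IL-12 and IL-23 receptors, had 116 and 105 CPM with IFN-γ, against 0.873 and 0.894 CPM untreated (log2 fold change 6.96 ± 0.15, edgeR adjusted p = 5.35e-11). Il18bp, a soluble trap for IL-18, rose by 5.10 ± 0.20, Tnfsf10, the death ligand TRAIL, by 6.44 ± 0.19 and Il27 by 4.05 ± 0.23 (edgeR adjusted p = 3.64e-09, 3.74e-10 and 8.25e-08). Il12b, the p40 subunit gene of IL-12, had 1 and 1 counts with IFN-γ and 2 and 2 counts untreated, and was too low to test.

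Metabolic effectors of the activated macrophage rose to different degrees. Acod1, the enzyme that makes itaconate, had 816 and 855 CPM in the IFN-γ CKO libraries, against 4.25 and 3.63 CPM in the untreated CKO libraries (log2 fold change 7.73 ± 0.17, edgeR adjusted p = 5.35e-11). Nos2, the inducible nitric oxide synthase gene, had 4.7 and 4.87 CPM with IFN-γ, against 0 and 0.0577 CPM untreated, a ratio of 146 (95% interval 40 to 1213), and the tryptophan-degrading enzyme gene Ido1 had 3.35 and 4.72 CPM with IFN-γ, against 0.0759 and 0.0288 CPM untreated, a ratio of 82.2 (95% interval 27.7 to 402). Both ratios rest on few untreated counts, 0 and 2 for Nos2 and 2 and 1 for Ido1. The fitted log2 fold change of Nos2 was 6.25 without untreated CKO library 1 and 10.05 without untreated CKO library 2, which leaves no untreated count, and that of Ido1 was 6.91 and 5.64 in the same fits. Ass1, which regenerates arginine from citrulline, rose by 3.41 ± 0.18 and the arginine transporter gene Slc7a2 by 2.28 ± 0.14 (edgeR adjusted p = 5.2e-08 and 1.87e-07). Arg1, the arginase gene of IL-4-activated macrophages, had 7.71 and 7.4 CPM with IFN-γ, against 2.96 and 0.49 CPM untreated (log2 fold change 2.21 ± 0.58, edgeR adjusted p = 0.0218), and its call was lost without IFN-γ CKO library 1 or 2, with an adjusted p of up to 0.0995. Its log2 fold change was 3.91 without untreated CKO library 1 and 1.34 without untreated CKO library 2. Over the list of 16 tested genes, 10 rose and 1 fell.

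Complement and Fc receptor genes rose in 16 of 21 tested cases, with a median of 3.38. C3, the central complement protein, had 768 and 691 CPM in the IFN-γ CKO libraries, against 41.4 and 35.9 CPM in the untreated CKO libraries (log2 fold change 4.24 ± 0.12, edgeR adjusted p = 2.72e-10). C1qb, a subunit of the C1q complex that tags cells and debris, rose by 3.98 ± 0.25, C4b by 7.10 ± 0.34 and the high-affinity IgG receptor gene Fcgr1 by 5.02 ± 0.15 (edgeR adjusted p = 4.62e-07, 3e-08 and 3.21e-10). C4b was at 7.86 without untreated CKO library 1 and 6.49 without untreated CKO library 2. Fcgr2b, the inhibitory IgG receptor gene, had 98.5 and 87.2 CPM with IFN-γ, against 204 and 208 CPM untreated, and it was the 1 member that fell (log2 fold change −1.15 ± 0.12, edgeR adjusted p = 1.46e-05).

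Sensors of microbes inside the cell were among those that rose. Of 23 pattern recognition receptor genes, 16 rose and 4 fell. The cytosolic receptor genes Nod1 and Nod2 rose by 2.40 ± 0.15 and 2.16 ± 0.18 (edgeR adjusted p = 2.53e-07 and 2.85e-06), and Tmem173, which encodes STING, by 2.33 ± 0.13 (edgeR adjusted p = 5.2e-08). The endotoxin co-receptor gene Cd14 had 45.8 and 43.2 CPM with IFN-γ, against 78.5 and 73.5 CPM untreated (log2 fold change −0.77 ± 0.12, edgeR adjusted p = 4.06e-04). The C-type lectin gene Clec4d fell (log2 fold change −0.85 ± 0.14) while its neighbour Clec4e, the receptor Mincle, rose by 1.13 ± 0.22 (edgeR adjusted p = 5.82e-04 and 0.00288), so neighbouring lectin genes moved in opposite directions.

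Inflammasome and cell death genes rose in 13 of 23 tested cases, with a median of 0.58, and Casp1, the protease that matures IL-1β, had 346 and 365 CPM with IFN-γ, against 70 and 56.3 CPM untreated (log2 fold change 2.49 ± 0.14, edgeR adjusted p = 9.63e-08). Mlkl, the executioner of necroptosis, rose by 2.21 ± 0.10 (edgeR adjusted p = 8.98e-09), and without untreated CKO library 2, 1 member of this list was called lower. Of 14 NF-κB genes, 8 rose (5 without IFN-γ CKO library 1), and the inhibitor gene Nfkbie rose by 1.36 ± 0.16 (edgeR adjusted p = 6.09e-05).

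**Figure D3:**
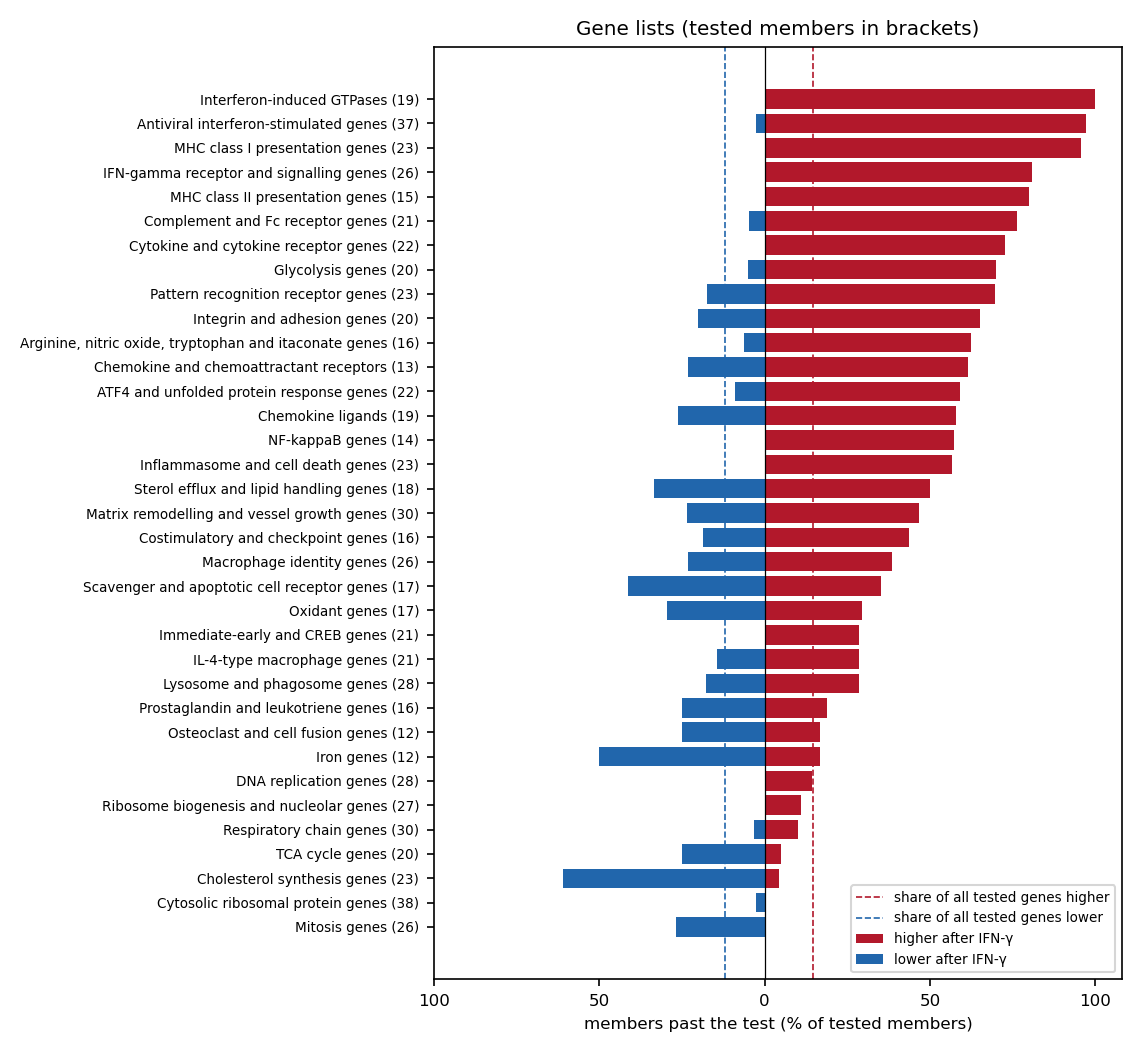
Percentage of the tested members of each of 35 gene lists that rose (red, to the right) or fell (blue, to the left) after IFN-γ in CKO macrophages, with the number tested in brackets. Dashed lines mark the share of all tested genes that rose, 14.7%, and fell, 11.9%, and the cholesterol synthesis list has the longest bar to the left, 14 of 23.

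Genes that fell included receptors for uptake and secreted factors. Mrc1, the mannose receptor gene and a marker of IL-4-activated cells, had 207 and 212 CPM in the IFN-γ CKO libraries, against 1053 and 1056 CPM in the untreated CKO libraries (log2 fold change −2.33 ± 0.09, edgeR adjusted p = 4.26e-09). Gas6, the bridge between dying cells and the receptors AXL and MERTK, had 187 and 199.9 CPM in the IFN-γ CKO libraries, against 1288 and 1323 CPM in the untreated CKO libraries (log2 fold change −2.75 ± 0.12, edgeR adjusted p = 1.06e-08). Its receptor gene Axl moved the other way, with 123 and 115 CPM with IFN-γ, against 16.5 and 11.1 CPM untreated (log2 fold change 3.12 ± 0.16, edgeR adjusted p = 3.82e-08). F13a1, coagulation factor XIII subunit A, had 62.6 and 69.3 CPM in the IFN-γ CKO libraries, against 504 and 484 CPM in the untreated CKO libraries (log2 fold change −2.91 ± 0.11, edgeR adjusted p = 3.06e-09).

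Of 17 scavenger and apoptotic cell receptor genes, 6 rose and 7 fell, with a median of −0.17, and 0.14 without untreated CKO library 1. Stab1, a scavenger receptor gene, fell (log2 fold change −1.43 ± 0.13), as did Cd36, a receptor for oxidised lipoprotein (log2 fold change −1.07 ± 0.14), while Msr1, the class A scavenger receptor gene, rose by 1.83 ± 0.12 (edgeR adjusted p = 6.09e-06, 1.44e-04 and 2.96e-07). Among macrophage identity genes 10 of 26 rose and 6 fell. Lyz2, low as it was, fell (log2 fold change −0.92 ± 0.13, edgeR adjusted p = 2.45e-04). Genes of IL-4-activated macrophages did not move as 1 block, with 6 of 21 higher and 3 lower (6 lower without untreated CKO library 2) and a median of −0.13 (0.21 without untreated CKO library 1). Of all tested genes 14.7% were higher and 11.9% lower, so the share lower in this list was near that of all genes. Members of the list that rose included Tgm2, a transglutaminase gene (2.997 ± 0.14), and Flt1, a VEGF receptor gene (4.98 ± 0.16, edgeR adjusted p = 1.13e-08 and 9.29e-10).

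The 12 largest decreases by rule had varied roles. The 21 genes that fell by at least 16-fold did not meet the rule, which is given below with the processing. Slc16a9, a monocarboxylate transporter family gene, had 2.33 and 2.01 CPM with IFN-γ, against 35.6 and 22.1 CPM untreated (log2 fold change −3.73 ± 0.34, edgeR adjusted p = 8.84e-06). Cnrip1, which encodes a partner of the cannabinoid receptor, fell (log2 fold change −3.20 ± 0.17), as did Gsta3, a glutathione transferase gene (log2 fold change −3.15 ± 0.21) and Dbp, a clock output transcription factor gene (log2 fold change −3.15 ± 0.28, edgeR adjusted p = 4.08e-08, 3.78e-07 and 7.25e-06). Cxcr4, F13a1 and Gas6 were among the 12. The others were Cbr2 (−2.63), Mmp27 (−2.62), Nat8l (−2.59), Atrnl1 (−2.55) and Slc26a11 (−2.54), as log2 fold changes. The rule admitted only genes also called without untreated CKO library 1, so holding without that library was fixed by the choice.

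Most cholesterol synthesis genes fell. Of 23 cholesterol synthesis genes tested, 14 fell, with a median of −0.73, against 11.9% of all tested genes lower. Hmgcs1, which feeds the mevalonate pathway, had 78.2 and 78.1 CPM in the IFN-γ CKO libraries, against 162 and 176 CPM in the untreated CKO libraries (log2 fold change −1.11 ± 0.10, edgeR adjusted p = 6.65e-06). Mvd and Insig1 fell (log2 fold changes −1.09 ± 0.13 and −1.04 ± 0.11, edgeR adjusted p = 8.03e-05 and 2.57e-05). The 1 member that rose, Ebp (0.44 ± 0.11, edgeR adjusted p = 0.0109), lost its call without untreated CKO library 1 or IFN-γ CKO library 1 or 2, with an adjusted p of up to 0.0823. Abcg1, a sterol exporter gene, rose by 2.44 ± 0.32, Nr1h3, which encodes the oxysterol receptor LXRα, by 1.81 ± 0.13 and the lipoprotein lipase gene Lpl by 1.62 ± 0.16 (edgeR adjusted p = 2.16e-04, 8.34e-07 and 1.05e-05). In the sterol efflux and lipid list of 18 tested genes, 9 rose and 6 fell, and the 9 became 5 without IFN-γ CKO library 1.

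Hexokinase genes, whose products open glycolysis, rose. Among them, Hk3 had 1821 and 1835 CPM in the IFN-γ CKO libraries, against 491 and 554 CPM in the untreated CKO libraries (log2 fold change 1.81 ± 0.10, edgeR adjusted p = 9.34e-08). Hk1, Hk2 and the phosphofructokinase gene Pfkp rose by 1.31 ± 0.14, 1.18 ± 0.12 and 1.48 ± 0.11 (edgeR adjusted p = 1.78e-05, 1.12e-05 and 7.9e-07), while Aldoc, an aldolase gene, fell (log2 fold change −0.84 ± 0.11, edgeR adjusted p = 1.56e-04). Of 20 glycolysis genes tested, 14 rose, 9 without IFN-γ CKO library 2. Their median was 0.58, and 0.41 without untreated CKO library 1, and Gapdh had 728 and 736 CPM in the IFN-γ CKO libraries, against 323 CPM in untreated CKO library 1 and 559 CPM in untreated CKO library 2. The part of that library's low Gapdh in the glycolysis count was not tested.

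Among TCA cycle genes, 3 isocitrate dehydrogenase genes fell. These were Idh1 (log2 fold change −1.36 ± 0.19), Idh2 (−0.78 ± 0.09) and Idh3g (−0.41 ± 0.10), with edgeR adjusted p of 2.19e-04, 3.79e-05 and 0.00784. The call of Idh3g was lost without IFN-γ CKO library 2 (edgeR adjusted p = 0.0884). Over 20 TCA genes 1 rose and 5 fell. The 5 became 2 without IFN-γ CKO library 2, and the 1 became 0 without IFN-γ CKO library 1 or 2, 2 without IFN-γ WT library 1 or 2 and 7 without untreated CKO library 2. Respiratory chain genes had 3 of 30 higher and 1 lower. The 3 became 1 without any one of both untreated WT libraries, both IFN-γ CKO libraries or untreated CKO library 1, and without untreated CKO library 2 there were 7 higher and 2 lower. Cytosolic ribosomal protein genes had 1 of 38 lower and none higher, with 0 lower without untreated CKO library 1 or either IFN-γ CKO library and 3 without untreated CKO library 2. In these 2 lists the shares called with all libraries lay below those of all tested genes.

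Growth-related lists rested on which untreated library was used, and on the replicate block described below. With all libraries and no block, the shares of DNA replication and ribosome biogenesis genes that rose were not above the 14.7% of all tested genes. The share of all tested genes that fell was 11.9%. Mki67, a proliferation marker gene, had 297 and 315 CPM in the IFN-γ CKO libraries, against 642 and 1104 CPM in the untreated CKO libraries (log2 fold change −1.51 ± 0.22, edgeR adjusted p = 3.35e-04), and Ccnb2, a mitotic cyclin gene, fell (log2 fold change −0.83 ± 0.12, edgeR adjusted p = 2.04e-04). Of 26 mitosis genes, 7 fell. The 7 became 18 without untreated CKO library 1 and 3 without any one of the other 3 CKO libraries, and 2 members were called higher without untreated CKO library 2. Of 28 DNA replication genes, 4 rose, among them Pcna, the polymerase clamp (0.77 ± 0.14, edgeR adjusted p = 0.00168). The 4 became 22 without untreated CKO library 2, and 1 member was called lower without untreated CKO library 1. The median of the replication list was 0.46 with all libraries and 0.06 without untreated CKO library 1. Ribosome biogenesis genes had 3 of 27 higher, 1 without untreated CKO library 1 or IFN-γ CKO library 2 and 18 without untreated CKO library 2, and their median of 0.46 was 0.12 without untreated CKO library 1.

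Redox and iron genes included clear decreases, where 14.7% of all tested genes rose and 11.9% fell. Cat, the catalase gene, had 307 and 309 CPM in the IFN-γ CKO libraries, against 1358 and 1176 CPM in the untreated CKO libraries (log2 fold change −2.04 ± 0.13, edgeR adjusted p = 3.26e-07), and Nqo1 and the cystine transporter gene Slc7a11 fell (log2 fold changes −1.40 ± 0.13 and −1.43 ± 0.15, edgeR adjusted p = 5.09e-06 and 2e-05). Sod2, the mitochondrial superoxide dismutase gene, rose by 1.52 ± 0.10, and Cybb, the catalytic subunit gene of the phagocyte NADPH oxidase, by 1.78 ± 0.29 (edgeR adjusted p = 4.88e-07 and 9.82e-04). Of 17 oxidant genes, 5 rose and 5 fell, with a median of −0.10, and 0.04 without untreated CKO library 1. The higher ones became 3 without untreated CKO library 1 or either IFN-γ CKO library, and the lower ones 8 without untreated CKO library 1. The transferrin receptor gene Tfrc had 248 and 302 CPM with IFN-γ, against 682 and 668 CPM untreated, and it fell (log2 fold change −1.29 ± 0.12), as did the ferritin light chain gene Ftl1 (−0.64 ± 0.10, edgeR adjusted p = 6.05e-06 and 3.44e-04). Of 12 iron genes tested, 6 fell and 2 rose, with 1 higher without any one of both untreated WT libraries, untreated CKO library 1 or both IFN-γ CKO libraries.

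Lysosomal genes moved both ways, where 14.7% of all tested genes rose and 11.9% fell. Ctss, the cathepsin that trims the invariant chain, had 3266 and 3379 CPM in the IFN-γ CKO libraries, against 1205 and 816 CPM in the untreated CKO libraries (log2 fold change 1.72 ± 0.19, edgeR adjusted p = 4.3e-05). Ctsh rose by 2.39 ± 0.24 and Ctsc by 1.51 ± 0.14 (edgeR adjusted p = 2.9e-05 and 6.35e-06), and Atp6v1a, a proton pump subunit gene, fell (log2 fold change −0.71 ± 0.10, edgeR adjusted p = 2.9e-04). Of 28 lysosome and phagosome genes, 8 rose and 5 fell, with 4 higher and 2 lower without IFN-γ CKO library 1 and 5 higher and 2 lower without IFN-γ CKO library 2. Genes of the ATF4 and unfolded protein response rose in 13 of 22 cases and fell in 2, with a median of 0.62, and 0.31 without untreated CKO library 1. Those that rose included Trib3, a pseudokinase gene (3.06 ± 0.25), and Asns, asparagine synthetase (1.86 ± 0.22, edgeR adjusted p = 2.22e-06 and 7.3e-05). Herpud1, a gene of endoplasmic reticulum protein degradation, fell (log2 fold change −1.05 ± 0.10, edgeR adjusted p = 1e-05).

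Matrix, vessel and adhesion genes moved both ways. Mmp8, a collagenase gene, had 108 and 108 CPM in the IFN-γ CKO libraries, against 673 and 549 CPM in the untreated CKO libraries (log2 fold change −2.50 ± 0.12, edgeR adjusted p = 1.84e-08). The macrophage elastase gene Mmp12 fell (log2 fold change −1.51 ± 0.18), as did the fibronectin gene Fn1 (log2 fold change −1.26 ± 0.15), while the growth factor genes Pdgfa and Pdgfb rose by 1.83 ± 0.19 and 2.07 ± 0.14 (edgeR adjusted p = 6.37e-05, 5.53e-05, 2e-05 and 3.1e-07). Of 30 such genes tested, 14 rose and 7 fell. Of 20 integrin and adhesion genes, 13 rose and 4 fell. Itgb7 had 395 and 419.6 CPM with IFN-γ, against 47.5 and 52.4 CPM untreated (log2 fold change 3.03 ± 0.11) and Itgb3, the β3 integrin gene of osteoclasts, had 1.47 and 1.34 CPM with IFN-γ, against 13.3 and 13.2 CPM untreated (log2 fold change −3.23 ± 0.22, edgeR adjusted p = 2.18e-09 and 4.28e-07).

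Among the remaining lists, immediate-early and CREB genes rose in 6 of 21 cases, 3 without IFN-γ CKO library 1, with 2 lower without untreated CKO library 2, and Crem, a cAMP-responsive factor gene, rose by 1.43 ± 0.14 (edgeR adjusted p = 1.15e-05). Of 16 prostaglandin and leukotriene genes, 3 rose (6 without untreated CKO library 1) and 4 fell (2 without either IFN-γ CKO library), and the share that rose is near the 14.7% of all tested genes. Ptgs2, the inducible prostaglandin synthase gene, had 27.2 and 14.7 CPM with IFN-γ, against 0.607 and 0.49 CPM untreated and Ltc4s, leukotriene C4 synthase, had 1.2 and 1.3 CPM with IFN-γ, against 7.25 and 9.03 CPM untreated (log2 fold changes 5.26 ± 0.50 and −2.70 ± 0.28, edgeR adjusted p = 2.34e-05 and 1.6e-05). Of 12 osteoclast and cell fusion genes, 2 rose, again near the share of all tested genes, and 3 fell. Ocstamp, a gene of osteoclast fusion, had 11.4 and 10.6 CPM with IFN-γ, against 0.759 and 0.519 CPM untreated (log2 fold change 4.13 ± 0.22, edgeR adjusted p = 5.81e-08).

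Markers of other cells a marrow culture can hold moved with the treatment in some cases, where 14.7% of all tested genes rose and 11.9% fell. Of 16 neutrophil markers tested, 6 rose, 2 without IFN-γ CKO library 1 and 3 without IFN-γ CKO library 2, and 1 fell, 2 without untreated CKO library 2. Their summed level was 555 and 546 CPM with IFN-γ, against 1085 and 808 CPM untreated. Of 11 monocyte and progenitor markers, 5 rose and 2 fell, with a sum of 341 and 328 CPM with IFN-γ, against 678 and 650 CPM untreated, and the monocyte surface gene Ly6c2 had 64.4 and 61.9 CPM with IFN-γ, against 12.2 and 8.57 CPM untreated (log2 fold change 2.61 ± 0.24, edgeR adjusted p = 9.95e-06). Both sums were lower with IFN-γ although more of their members rose than fell, and Mmp8 and F13a1, given above, made up the larger part of the untreated sums. Type 1 dendritic cell markers rose in 4 of 6 cases, with a sum of 568 and 592 CPM with IFN-γ, against 526 and 582 CPM untreated. Clec9a, a dendritic cell receptor for dying cells, had 6.47 and 5.5 CPM with IFN-γ, against 0.304 and 0.202 CPM untreated. In WT, Clec9a had 43.7 and 52.7 CPM with IFN-γ, against 0.105 and 0.0682 CPM untreated. Its rise was smaller in CKO (difference of log2 fold changes −4.48 ± 0.72, edgeR adjusted p = 0.00743). That difference rests on few untreated counts, 8 and 7 in CKO and 3 and 2 in WT. Xcr1, the chemokine receptor gene that defines type 1 dendritic cells, had 0.978 and 0.706 CPM with IFN-γ, against 0.797 and 0.634 CPM untreated. The part of such cells in the results above was not tested.

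Many of the genes that rose most lay near each other in the genome. Of the 205 genes that rose by at least 16-fold and have a position in GENCODE M21 on GRCm38, 107 (52.2%) had another such gene starting within 200 kb, in 30 clusters. Of the 168 positioned genes that fell by at least 4-fold, 26 (15.5%) had another such gene within 200 kb, in 12 clusters. The 2 sets differ in size and in fold threshold. Size alone changes such a share, and none was computed over all tested genes. Among clusters of at least 4 of the higher genes were the Gbp genes of chromosome 3 (5 genes, from 142493978 to 142620602) and of chromosome 5 (7 genes, from 105139539 to 105346472). The Irgm1 and Tgtp region of chromosome 11 held 7 genes (from 48871683 to 49076587) and the Serpina3 region of chromosome 12 held 6 (from 104192926 to 104406729). Reads shared between near copies in these families were not separated here.

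In the RefSeq promoter table, ISRE and GAS matches were counted for the genes that rose most. Only 117 of the 206 genes that rose by at least 16-fold were matched to a promoter there, so a check of the classes against each other is void, and the shares describe the promoters in the table. Of the 137 promoters of those 117 genes, 43 (31.4%) held an ISRE match and 28 (20.4%) a GAS match, and 15 (10.9%) held an EICE match. Of all 32851 promoters in the table, 3.44% held an ISRE match, 8.3% a GAS match and 2.72% an EICE match. The letters of EICE and ISRE end alike, so their matches can overlap. The Cxcl9 window (chr5:92328030-92328329, minus strand) held none of the 3.

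The comparison with WT cells asked where the CKO response was unlike that of cells labelled WT. A test of the difference between both responses called 443 genes (2.72% of 16292). The CKO response lay above the WT response for 337 (2.07%) and below it for 106 (0.651%). Of the 337, 199 rose in CKO, 48 fell and 90 did not pass the test in CKO. For 40 of the 443 genes both responses passed the test with opposite signs. The count of 443 became 374 without untreated CKO library 1. It became 168 and 137 without IFN-γ CKO library 1 and 2, 940 without untreated CKO library 2, 269 and 226 without IFN-γ WT library 1 and 2, and 189 and 230 without untreated WT library 1 and 2.

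**Figure D4:**
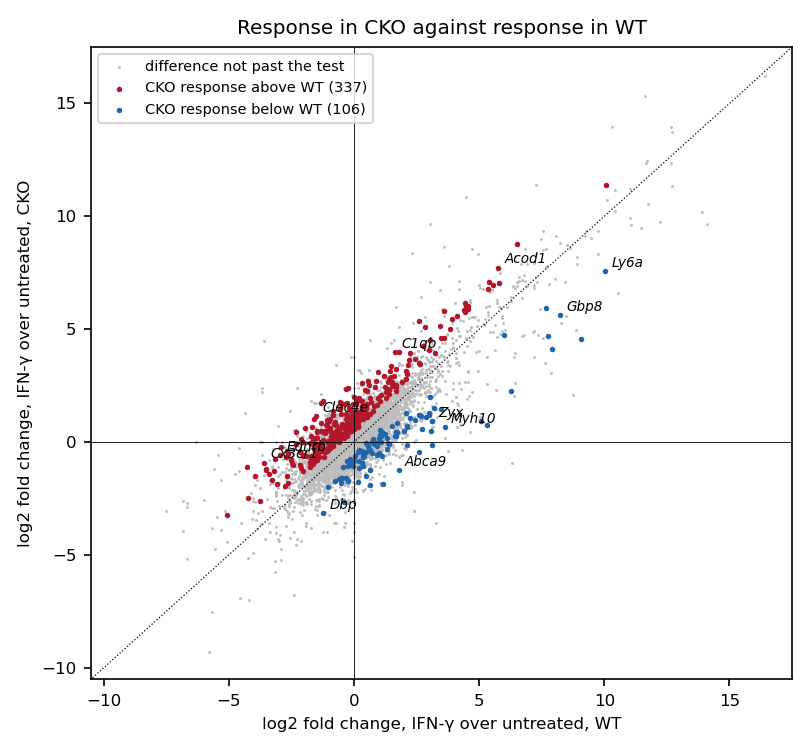
Log2 fold change of IFN-γ over untreated in CKO (vertical axis) against that in WT (horizontal axis), 1 point a gene, with a dotted line of equal responses. Red points are the 337 genes whose CKO response lay above the WT response past the test of the difference, blue points the 106 below it, and the named genes are some of those with the largest differences.

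Several genes responded in opposite directions. Clec4e had 72.6 and 71.7 CPM with IFN-γ and 31.9 and 33.8 CPM untreated in CKO, against 17.7 and 22.9 CPM with IFN-γ and 55.7 and 60.9 CPM untreated in WT (difference of log2 fold changes 2.65 ± 0.32, edgeR adjusted p = 0.00182). Pilra, an inhibitory receptor gene, rose by 1.02 ± 0.14 in CKO and fell in WT (−1.58 ± 0.15, difference 2.60 ± 0.20, edgeR adjusted p = 1.34e-04). Abca9, a lipid transporter family gene, had 32.8 and 28.5 CPM with IFN-γ and 89.3 and 57.1 CPM untreated in CKO, against 4.35 and 4.46 CPM with IFN-γ and 1.19 and 1.36 CPM untreated in WT (difference −3.04 ± 0.34, edgeR adjusted p = 0.00109). It fell in CKO and rose in WT. Irf8 changed by 2.14 ± 0.12 in CKO and 2.48 ± 0.12 in WT, a difference of −0.34 ± 0.16 that did not pass the test (edgeR adjusted p = 0.394).

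Other genes moved the same way in both and further in one of them. Acod1 rose by 7.73 ± 0.17 in CKO and 5.76 ± 0.16 in WT (difference 1.974 ± 0.20, edgeR adjusted p = 5.02e-04), and C1qb, Cd40, Oasl2 and C3 had differences of 2.34, 2.18, 2.21 and 1.48 (edgeR adjusted p = 0.00356, 7.26e-04, 2.46e-04 and 7.26e-04). Untreated levels of Cd40 were 0.645 and 0.634 CPM in CKO and 5.35 and 5.49 CPM in WT. Its IFN-γ levels were 11 and 9.33 CPM in CKO and 19.4 and 18.4 CPM in WT, so the larger fold in CKO came with lower levels in both treatments. The same held for C1qb, with 49.5 and 28.3 CPM untreated in CKO and 472 and 503 CPM in WT. With IFN-γ, C1qb had 675 and 553 CPM in CKO and 1410 and 1641 CPM in WT. For C3 both levels were higher in CKO, with WT at 63.2 and 73.9 CPM with IFN-γ and 10.3 and 9.96 CPM untreated. Cd14 and Cx3cr1 fell less in CKO, with differences of 1.75 and 2.69, and the endothelin receptor gene Ednrb likewise with 2.36 (edgeR adjusted p = 3.92e-04, 0.00676 and 1.34e-04). In WT, Cx3cr1 had 0.166 and 0.216 CPM with IFN-γ (4 and 6 counts), against 2.06 and 2.69 CPM untreated. Its difference thus rests on few WT counts. Of the 37 antiviral genes tested, 15 had a difference above 0 past the test (13 without untreated CKO library 1) and none below, against 2.07% of all tested genes above. Of 30 matrix and vessel growth genes, 8 had a difference above 0 and none below past the test, with 6 above and 2 below without untreated CKO library 1. Of 23 cholesterol synthesis genes 5 had a difference above 0 and none below, with 1 above without untreated CKO library 1.

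Responses smaller in CKO included genes of the cytoskeleton and surface. Myh10, a non-muscle myosin gene, had 7.34 and 6.47 CPM with IFN-γ and 3.64 and 5.05 CPM untreated in CKO, against 55.3 and 56.6 CPM with IFN-γ and 4.37 and 4.74 CPM untreated in WT (difference −2.96 ± 0.21, edgeR adjusted p = 1.34e-04). Zyx, a focal adhesion gene, had a difference of −2.19, the RNA-binding protein gene Mex3b −2.60 and the lysosomal amidase gene Naaa −2.20 (edgeR adjusted p = 0.00111, 3.54e-04 and 0.00215). Ly6a, the surface antigen Sca-1, had 1148 and 1198 CPM with IFN-γ and 6.22 and 5.97 CPM untreated in CKO, against 793 and 983 CPM with IFN-γ and 0.839 and 0.853 CPM untreated in WT (difference −2.44 ± 0.21, edgeR adjusted p = 2.4e-04). Gbp8 had a difference of −2.61 (edgeR adjusted p = 0.00118), with untreated levels of 11.6 and 7.21 CPM in CKO and 0.909 and 0.682 CPM in WT. For Ly6a and Gbp8 the untreated CKO level was above the WT one, and the IFN-γ levels were 472 and 447 CPM in CKO and 247 and 232 CPM in WT for Gbp8. Apart from that of Irf8, the gene differences named in these 3 paragraphs passed the test in each fit that left out 1 of the 8 libraries. Differences that failed in some fits are given with the flagged results, so this holds by the choice of genes here.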

How the data were processed

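RNA of mouse bone marrow-derived macrophages was captured with the Illumina RNA Exome kit, per the labels' protocols. Genes without capture probes may be poorly measured, which was not tested. The deposited values are raw read counts per gene, 1 column a library. Per the submitters' processing notes, the tools were HTSeq 0.6.1, TopHat2 2.0.13, CASAVA 1.8.2 and Picard 1.97, and the builds mm10 and GRCh38 are listed without a role. Strand setting and annotation release were not found in these notes or the labels, so overlapping, antisense and near-identical genes are uncertain.

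All 12 libraries (21287725 to 32717379 counts) were fitted as 6 group means with edgeR 4.0.16 in R 4.3.3: filterByExpr, TMM scaling, robust quasi-likelihood F tests and Benjamini-Hochberg adjustment over the 16292 genes tested, with 6 residual degrees of freedom. The contrasts were IFN-γ minus untreated in CKO, and that difference minus the same in WT. SEs are approximate, from the log2 fold change and its F statistic. Of symbols with several gene IDs, the ID with most counts was used. Alternatives were DESeq2 1.42.0, its size factors within edgeR, other filters on low counts, a fit of the groups compared alone, a replicate block, a fold of at least 2, and leaving out each library of the contrast. The scripts were tested on simulated data.

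The comparison, the 35 pathway lists and the 13 marker lists were chosen with earlier results of these data known. Named genes are a set of 22 reference genes, the 12 largest increases and decreases, up to 4 called members a list with the smallest adjusted p and up to 3 against the majority, and the 8 largest differences to WT each way. Abcg1, Adgre1, B2m, Cd86, Csf1r, Cybb, Gapdh, Ifngr1, Ifngr2, Jak1, Jak2, Stab1 and Xcr1 fall outside this rule and were chosen after their values were seen. Some named genes are not reported here. Promoters came from RefSeq (GRCm38.p6) and positions from GENCODE M21.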

Additional observations from a re-analysis of the deposited data

Results flagged for a closer look

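The test of the difference between the CKO and WT responses set apart 443 genes. The values below are differences of log2 fold changes, CKO minus WT, with edgeR adjusted p over all tested genes, and explanations were not tested.

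The CKO response lay above the WT response for Clec4e (2.65), Pilra (2.60), Ednrb (2.36), C1qb (2.34) and Cx3cr1 (2.69), with adjusted p of 0.00182, 1.34e-04, 1.34e-04, 0.00356 and 0.00676 by edgeR. It also did for Oasl2 (2.21), Cd40 (2.18), Klf4 (1.98), Acod1 (1.974), Cd14 (1.75) and Nr1h3 (1.69). The difference of Cx3cr1 rests on few WT counts, 4 and 6 in the IFN-γ libraries. Smaller differences in the same direction were those of C3 (1.48), Isg15 (1.35), Igtp (1.28), Fcgr1 (1.18) and Psmb8 (0.93). The CKO response lay below it for Abca9 (−3.04), Myh10 (−2.96), Gbp8 (−2.61), Mex3b (−2.60), Ly6a (−2.44), Naaa (−2.20) and Zyx (−2.19). All 23 of these passed the test in each fit that left out 1 of the 8 CKO and WT libraries, IL-4 libraries kept.

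Another 5 differences did not pass in every such fit. Marcksl1 (2.34) reached an adjusted p of 0.0527 by edgeR without IFN-γ WT library 1. Dusp4 (2.30) was lost in 3 of the 8 fits, without either IFN-γ WT library or IFN-γ CKO library 2 (adjusted p of up to 0.0643), and Gpr84 (2.31) in 5 (up to 0.0859). Cxcl10 (2.25) and Dbp (−1.92) were lost in 6 each, with an adjusted p of up to 0.291 and 0.124.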

How the results depend on the processing

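No gene called in either direction changed its sign under any alternative run. The lack of overlap between the libraries of every called gene nearly fixed this beforehand. Genes called higher (2396) and lower (1937) numbered 2324 and 1750 with DESeq2, of which 2240 and 1705 were shared, and 2386 and 1939 with its size factors within edgeR. With a fold of at least 2 beside the adjusted p they numbered 1155 and 680, which that threshold makes fewer by construction. Leaving out 1 library gave 1573 to 2902 higher and 976 to 2354 lower. The share of calls that were higher was 55.3%, 62.9% with the fold threshold and 63.5% without IFN-γ CKO library 2. Differences between the CKO and WT responses (443) numbered 1019 with no filter on low counts, 289 with only the groups compared in the fit, 265 with a fold of at least 2 and 137 to 940 with 1 library left out. The cause of these shifts beyond the fold threshold and fewer samples was not tested. With 2 libraries a group, depth (21287725 counts or more a library) limits most the genes near the floor, such as Nos2 and Ido1.

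Replicate numbers 1 and 2 recur in each group, but the labels do not say what they share. Over 9446 genes, the deviations from the group means of IFN-γ and untreated libraries correlated with r = 0.31 in CKO and 0.73 in WT. With IL-4 libraries they correlated with r = 0.51 (IFN-γ) and 0.54 (untreated) in CKO and 0.11 and 0.25 in WT. All 6 values are above 0.1, but values between CKO and WT libraries overlap them. Those ran from −0.05 (IFN-γ CKO with IL-4 WT) to 0.42 (untreated CKO with untreated WT). With 2 numbers a genotype and no label on what a number shares, a pairing is not established. With a replicate block within genotype, 3169 genes were higher and 2649 lower, including 2392 and 1937 of the main calls, and 1080 differences between the responses were called. List counts moved by over 1.5 times under this replicate block for DNA replication (22 higher, against 4), ribosome biogenesis (18 higher, against 3), TCA cycle (6 higher, against 1), respiratory chain (7 higher, against 3) and prostaglandin genes (6 higher, against 3). Members called lower became 11, against 7, for mitosis, 5, against 3, for IL-4-type and for costimulatory genes, 4, against 0, for immediate-early genes and 1, against 0, for signalling genes. Among markers, those called lower became 2, against 1, for neutrophils, 3, against 1, for B cells and 1, against 0, for conventional dendritic cells. Of the single genes named, Arg1 lost its call in CKO under the block, and Ifngr1 and Mex3b gained one.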
